A study of Mus musculus with 23 samples.

Results

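The 42 genes described here encode the proteins that fill, dock, fuse and recycle synaptic vesicles. They were given as a list of gene symbols, and all 42 were found among the 18194 genes of the array, each read from the probe set whose mean over all 23 arrays was highest. Of these genes, 11 had a single probe set and 31 had several. Each array was hybridized with total RNA of a mouse cerebellar tumour, of isolated precursor cells or of whole cerebellum.

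The tumour groups were 3 CRISPR-Ptch1, 4 Ptch1+/-, 5 MERP and 4 GTML medulloblastomas. In CRISPR-Ptch1 mice, Cas9 and a guide RNA against Ptch1 were carried into the cerebellum on a plasmid, in 2 tumours by in utero electroporation of embryos (EP) and in 1 tumour by transfection of newborn Trp53-/- mice (TF). The EP tumours arose in wild-type animals, and the TF group is a single tumour. Ptch1+/- tumours arose in mice with a germline disruption of 1 Ptch1 allele. MERP tumours followed postnatal loss of Ptch1 in cells that express Math1 (Atoh1), a gene of granule neuron precursors, and GTML tumours followed overexpression of Mycn. The non-neoplastic groups were granule neuron precursors (GNPs, 3 samples), taken from pups of postnatal day 4 to 7, and adult cerebellum (4 samples). The labels give CD1 as the strain of every sample, whereas the methods name C57BL/6N mice for the transfections, and neither gives the age or sex of each animal or the array run.

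At a synapse, the vesicle protein VAMP forms a complex with syntaxin and SNAP25 of the plasma membrane, and assembly of this SNARE complex drives fusion once synaptotagmin has bound calcium. Active zone proteins such as RIM and Munc13 prepare vesicles for release, and dynamin and its partners retrieve the membrane afterwards. Granule neuron precursors divide in the outer layer of the young cerebellum and form synapses only after they have left the cell cycle, whereas in the adult cerebellum granule neurons, Purkinje cells and interneurons carry mature synapses.

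Values are log2 expression values computed by RMA, in which a difference of 1 is a doubling of signal. A fold change below is the log2 difference between 2 group means with its standard error, from limma over all 18194 genes, and a gene was called higher or lower at an adjusted p under 0.05. On the control probe sets, the 3' end exceeded the 5' end, a sign of RNA quality, by 0.68 to 0.82 in CRISPR-Ptch1, 1.08 to 1.45 in Ptch1+/-, 0.76 to 1.60 in MERP and 0.84 to 1.22 in GTML tumours, 0.64 to 0.79 in GNPs and 0.80 to 0.85 in adult cerebellum. Array medians lay between 5.999 and 6.17 and lower quartiles between 4.40 and 4.61. A group mean near those quartiles was read as near background. The tissue labels were checked against marker genes. The mean of 9 markers of GNPs was 11.03 in CRISPR-Ptch1, 11.19 in Ptch1+/-, 11.30 in MERP and 7.30 in GTML tumours, against 10.94 in GNPs and 6.63 in adult cerebellum. Atoh1 was at 5.41 in GTML tumours and 4.47 in adult cerebellum, against 9.71 in GNPs. The GNP samples also held 6 of 6 choroid plexus markers at a higher level than adult cerebellum, with list means of 10.09 and 6.92. The list means in tumours were 7.59 in CRISPR-Ptch1, 7.59 in Ptch1+/-, 7.55 in MERP and 6.77 in GTML tumours. Of these markers, Otx2 was also high in each tumour model, at 10.08 to 13.05. Ttr was at 11.31 in Ptch1+/- and 11.12 in MERP tumours and 14.23 in the TF tumour, against 8.98 in adult cerebellum. It was at 7.92 and 6.94 in the EP tumours and 7.51 in GTML tumours. Endothelial markers averaged 10.08 in GNPs, 8.23 in adult cerebellum and 7.16 to 8.22 in tumour models. Inhibitory interneuron markers averaged 7.67 in GNPs, 9.75 in adult cerebellum and 5.23 to 6.64 in tumour models. The part of such cells in the differences from GNPs was not tested. Ptch1 itself was at 12.98 in CRISPR-Ptch1 and 13.04 in MERP tumours, against 11.95 in adult cerebellum. A probe set outside the altered part of a transcript does not test the disruption. Mycn was at 7.83 in GTML tumours and at 6.88 in adult cerebellum, and whether this probe set reads the transgene is not known here.

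Most release machinery genes were lower in each tumour model, and in GNPs, than in adult cerebellum. In CRISPR-Ptch1 tumours 35 of the 42 genes were lower and 2 were higher, with a median log2 fold change of -1.81, where 21.1% of all genes tested were lower and 26.4% were higher. In Ptch1+/- tumours 34 were lower and 2 higher (median -1.92), beside 30.8% lower and 22.4% higher over all genes. In MERP tumours 37 were lower and 2 higher (median -2.37), beside 24.9% lower and 30.8% higher. In GTML tumours 36 were lower and 2 higher (median -1.67), beside 27.9% lower and 27.3% higher. In GNPs 33 were lower and 2 higher (median -2.16), beside 21% lower and 29.1% higher. The median over all genes in these comparisons lay between -0.03 and 0.08. These 5 comparisons share the 4 adult arrays. Counts by role or marker list against adult cerebellum, given below, stand beside these shares of all genes.

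For 31 of the 42 genes every one of the 16 tumour arrays lay below every adult array, as was so for 15.7% of all genes. For 2 genes, Stx1a and Slc17a6, every tumour array lay above every adult array, as was so for 13.3% of all genes. Every adult array lay above every tumour and GNP array for 30 of the 42 genes, and for 14.3% of all genes. Adult cerebellum had the highest group mean for most of the 42. The exceptions were Stx1a (highest in MERP tumours), Slc17a6 and Syt5 (highest in GTML tumours), Syn3 (highest in CRISPR-Ptch1 tumours) and Sypl (highest in GNPs). In bulk RNA, fewer cells of a type and less RNA per cell cannot be told apart. Markers of neurons that the adult tissue holds moved with these genes. Of 10 markers of mature granule neurons, 10 were lower in CRISPR-Ptch1, 10 in Ptch1+/-, 10 in MERP and 9 in GTML tumours and 9 in GNPs than in adult cerebellum, and all 9 Purkinje cell markers were lower in each. The list means of the granule neuron markers ranged from 8.18 to 10.53 in CRISPR-Ptch1, 7.41 to 7.87 in Ptch1+/-, 6.98 to 7.48 in MERP and 7.01 to 7.43 in GTML tumours and 7.89 to 7.96 in GNPs, against 12.28 to 12.30 in adult cerebellum. Gabra6, a defining marker of mature granule neurons, was near background in GTML tumours (4.10) and GNPs (3.995). Some others of the list were far above background there. Neurod2 was at 9.83 in GTML tumours, 9.67 in GNPs and 9.92 in adult cerebellum, and Rbfox3 at 10.01, 12.27 and 13.46. The part of cell makeup in these differences was not tested.

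**Figure D1:**
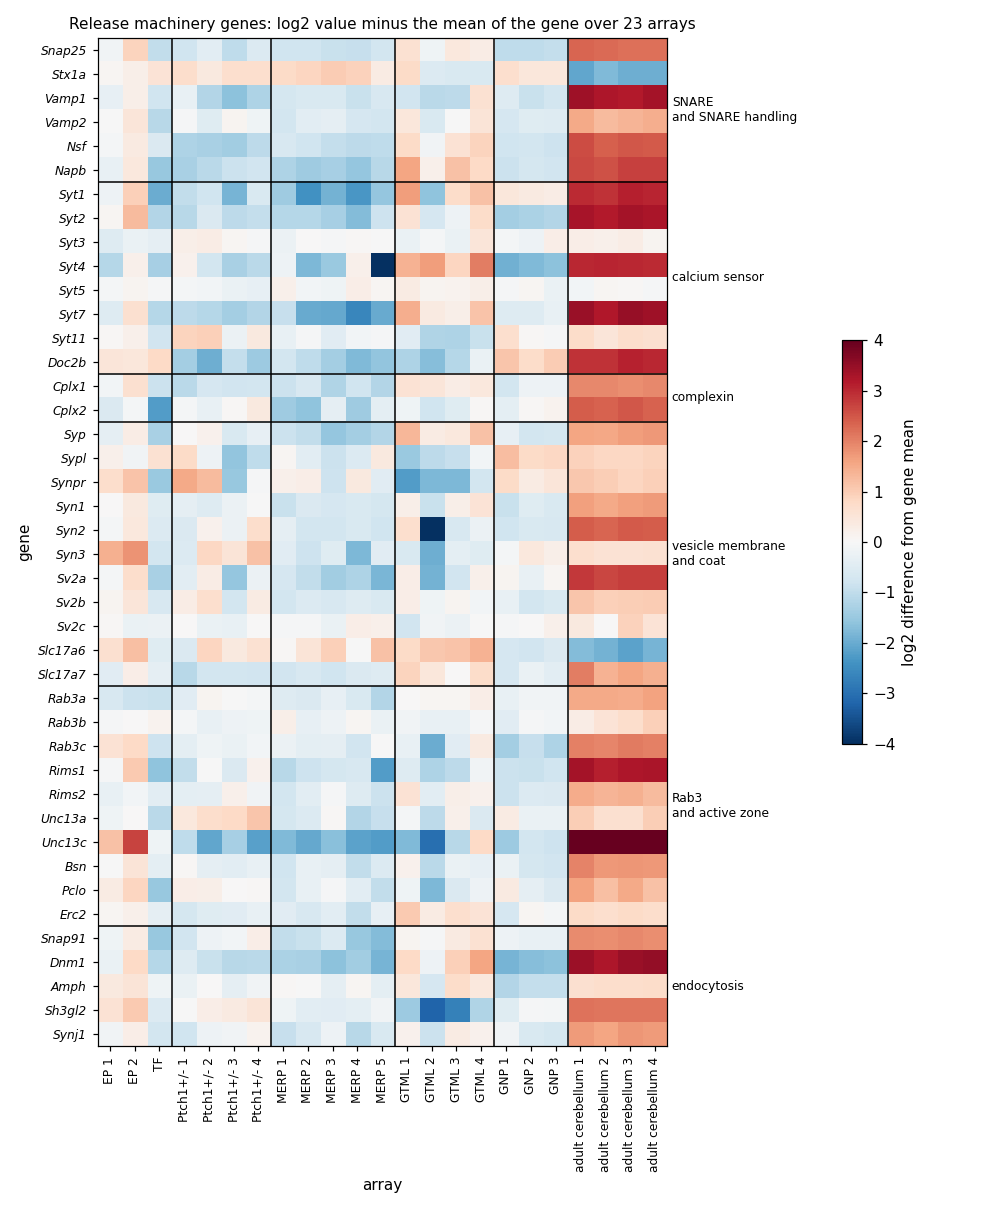
Log2 value of each of the 42 release machinery genes minus that gene's mean over the 23 arrays, with genes in rows by role and arrays in columns by group (red, above the mean of the gene; blue, below it; colours end at 4 in either direction). Adult cerebellum is red in nearly every row, Stx1a and Slc17a6 are blue there, and within the CRISPR-Ptch1 group EP 2 is above EP 1 and EP 1 above TF for 33 genes.

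**Figure D2:**
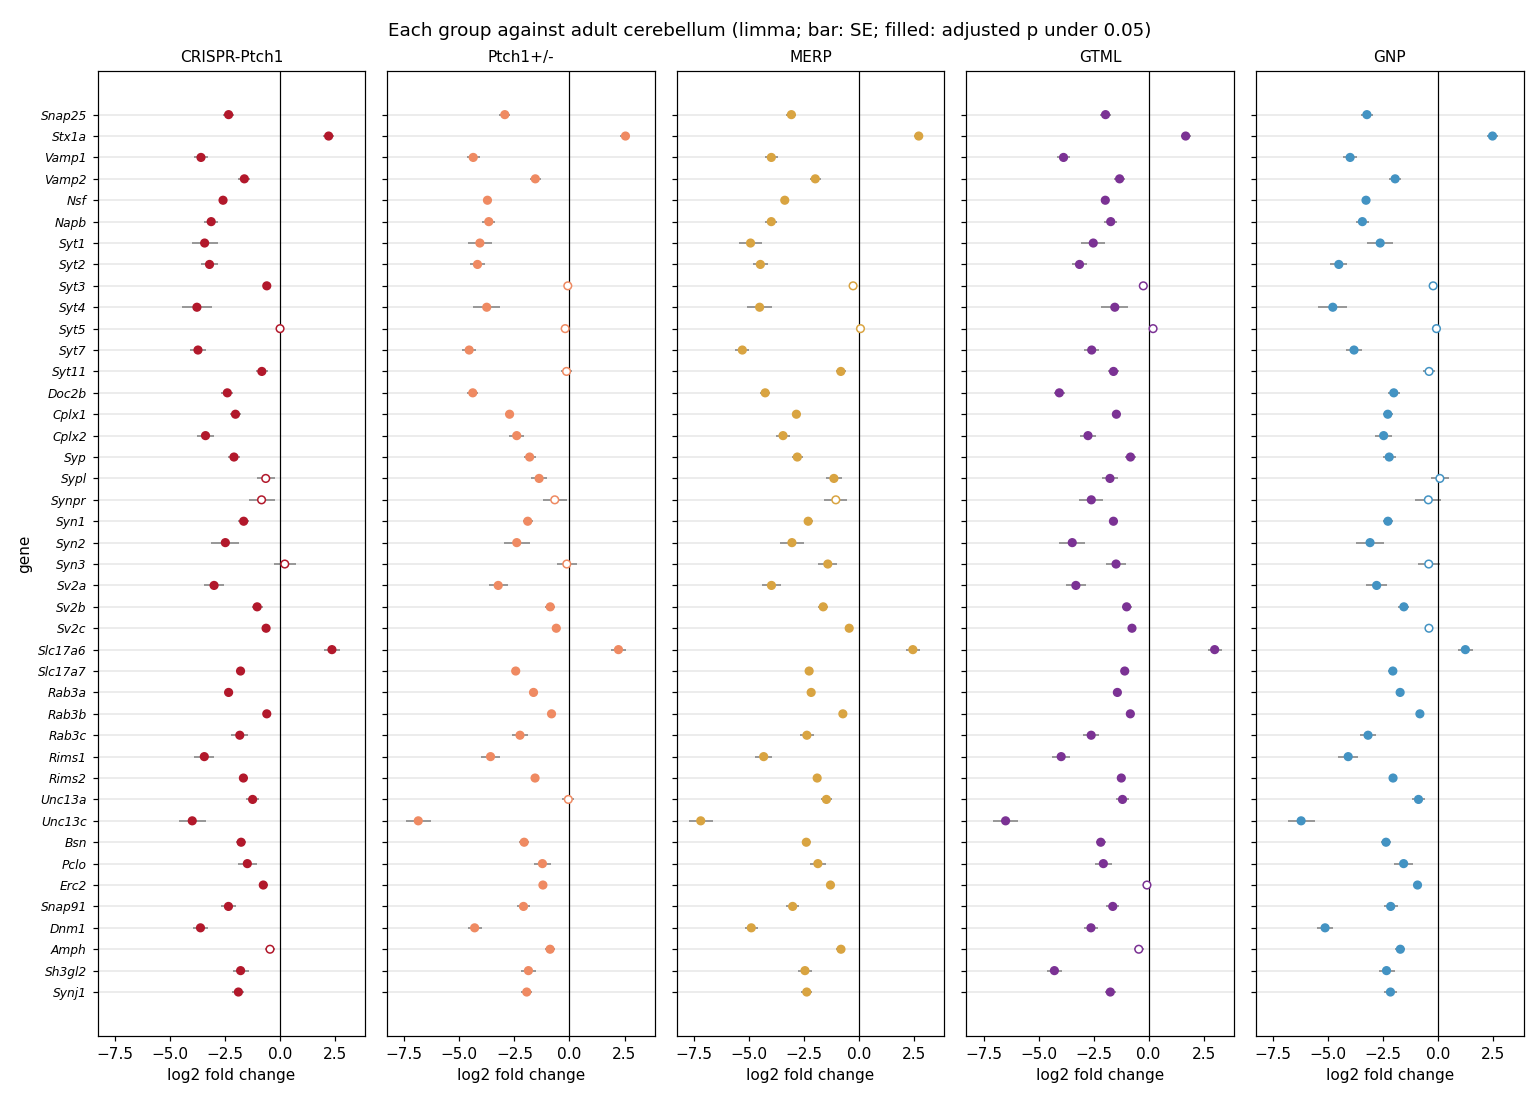
Log2 fold change of each of the 42 genes in CRISPR-Ptch1, Ptch1+/-, MERP and GTML tumours and in GNPs, each against adult cerebellum, with its standard error as a bar and filled points at an adjusted p under 0.05. Unc13c lies farthest to the left in all 5 panels, and Stx1a and Slc17a6 are the filled points to the right of 0.

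Promoter windows from RefSeq (mouse build GRCm38.p6) were matched to 34 of the 42 genes. Each window holds 300 bases, 250 before a transcription start and 50 after it, and the 34 genes had 45 windows. The 250 bases before the start are shown for both genes that were higher in all tumour models (Stx1a, Slc17a6) and for 2 that were lower (Syn1, and Slc17a7 as the sister gene of Slc17a6). Capitals mark the letters CAGCACC or GGACAG on either strand, which are the left and right parts of RE1, the element bound by the repressor REST at many neuronal genes.
Stx1a, chr5:135023232-135023481, plus strand: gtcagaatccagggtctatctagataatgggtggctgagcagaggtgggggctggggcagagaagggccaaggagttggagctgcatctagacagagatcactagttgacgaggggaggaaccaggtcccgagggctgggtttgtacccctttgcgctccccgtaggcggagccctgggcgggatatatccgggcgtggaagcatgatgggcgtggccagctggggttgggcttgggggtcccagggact
Slc17a6, chr7:51621580-51621829, plus strand: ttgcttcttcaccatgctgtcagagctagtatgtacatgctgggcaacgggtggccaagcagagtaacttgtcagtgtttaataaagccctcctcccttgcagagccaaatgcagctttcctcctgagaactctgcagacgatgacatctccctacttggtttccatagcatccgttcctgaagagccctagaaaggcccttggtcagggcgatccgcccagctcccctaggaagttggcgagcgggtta
Slc17a7, chr7:45163671-45163920, plus strand: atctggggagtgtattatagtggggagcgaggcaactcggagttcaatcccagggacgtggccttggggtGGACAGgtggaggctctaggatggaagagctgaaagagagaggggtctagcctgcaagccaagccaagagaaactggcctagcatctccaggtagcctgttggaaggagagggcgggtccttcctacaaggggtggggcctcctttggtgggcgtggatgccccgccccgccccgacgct
Syn1, chrX:20920919-20921168, minus strand: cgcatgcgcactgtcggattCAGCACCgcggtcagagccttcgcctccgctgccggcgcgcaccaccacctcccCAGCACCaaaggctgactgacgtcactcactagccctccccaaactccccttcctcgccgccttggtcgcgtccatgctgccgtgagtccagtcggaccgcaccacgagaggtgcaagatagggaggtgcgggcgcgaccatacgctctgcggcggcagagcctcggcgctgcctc

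The stretch before the start of Syn1 holds CAGCACC at 2 places and that of Slc17a7 holds GGACAG once, while those of Stx1a and Slc17a6 hold neither. Stretches of other genes that were lower, such as Vamp1, Dnm1 and Unc13c, also hold neither. Slc17a6 had another window, not shown, with neither before its start. In the part of a Slc17a6 window after the start, GGACAG is found once on the opposite strand. Over the windows of 300 bases, CAGCACC was found in 3 of 34 release machinery genes (8.82%) and in 8.14% of all 27025 genes with a window. GGACAG was found in 9 of 34 (26.5%) and in 24.7% of all. Both parts spaced by 2 bases (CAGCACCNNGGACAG) were found in none of the 34 and in 0.0407% of all. Only exact letters were searched, so near matches were not counted. In the Syn1 stretch, the first CAGCACC is followed after 2 bases by ggtcag, which differs from GGACAG in a single letter. A match to these letters is a description of the sequence, and sites outside the windows were not searched.

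Among the SNARE genes and their helpers, 5 of 6 were lower in every tumour model and in GNPs than in adult cerebellum, and Stx1a was higher. Vamp1, a vesicle SNARE, was at 6.55 and 7.09 in the EP tumours, 6.07 in the TF tumour, 6.58, 5.69, 5.22 and 5.64 in Ptch1+/- tumours, 6.17, 6.26, 6.25, 5.97 and 6.22 in MERP tumours and 6.09, 5.80, 5.81 and 7.47 in GTML tumours. It was at 6.36, 5.99 and 6.12 in GNPs and 10.27, 10.10, 10.04 and 10.21 in adult cerebellum. The adult arrays lay above all others, and the 4 tumour models overlapped one another. The fold change against adult cerebellum was -3.59 ± 0.32 in CRISPR-Ptch1, -4.37 ± 0.30 in Ptch1+/-, -3.98 ± 0.28 in MERP and -3.86 ± 0.30 in GTML tumours and -4.0002 ± 0.32 in GNPs (adjusted p = 8.84e-11 for MERP). Vamp2, the main vesicle SNARE of the forebrain, had fold changes of -1.62 in CRISPR-Ptch1, -1.55 in Ptch1+/-, -1.99 in MERP and -1.32 in GTML tumours.

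Snap25, a SNARE of the plasma membrane, was at 11.87 and 12.89 in the EP tumours, 11.03 in the TF tumour, 11.21, 11.61, 11.001 and 11.47 in Ptch1+/- tumours, 11.23, 11.21, 11.12, 11.10 and 11.28 in MERP tumours and 12.62, 11.85, 12.43 and 12.32 in GTML tumours. Values were 10.999, 11.01 and 11.06 in GNPs and 14.33, 14.27, 14.23 and 14.22 in adult cerebellum. All 4 GTML tumours lay above every MERP tumour, and EP 2 was the highest of all tumours. Snap25 was lower than in adult cerebellum by log2 fold changes of -2.33 ± 0.26 in CRISPR-Ptch1, -3.07 ± 0.23 in MERP and -1.96 ± 0.24 in GTML tumours, and it was higher in GTML than in MERP tumours by 1.12 ± 0.23 (adjusted p = 0.000548).

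Nsf, the ATPase that takes used SNARE complexes apart, and Napb, the adaptor that recruits it, also separated GTML from MERP tumours. Napb was at 8.89 and 9.61 in the EP tumours, 7.68 in the TF tumour, 7.89, 8.10, 8.32 and 8.42 in Ptch1+/- tumours, 7.95, 7.78, 7.86, 7.65 and 8.07 in MERP tumours and 10.76, 9.40, 10.37 and 9.98 in GTML tumours. Its values were 8.32, 8.47 and 8.42 in GNPs and 11.82, 11.73, 11.93 and 11.91 in adult cerebellum. Every GTML tumour lay above every other tumour except EP 2, which lay above GTML 2 only. The log2 fold change of GTML against MERP was 2.27 ± 0.27 (adjusted p = 8.73e-07) for Napb and 1.41 ± 0.18 (adjusted p = 1.65e-06) for Nsf. Nsf was 9.82 and 10.25 in the EP tumours and 9.32 in the TF tumour, against 8.65, 8.60, 8.51 and 8.85 in Ptch1+/- tumours and 9.24, 9.10, 8.94, 8.85 and 8.88 in MERP tumours. All 3 CRISPR-Ptch1 tumours were above all of both groups, with fold changes of 1.14 ± 0.20 and 0.79 ± 0.19 (adjusted p = 0.000165 and 0.01). Without EP 2 the second of these was not called (adjusted p = 0.0994), and with the mean of the Nsf probe sets the difference from Ptch1+/- tumours was 0.07 (adjusted p = 0.739).

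Stx1a, which encodes syntaxin 1A, the partner of SNAP25 at the plasma membrane, went against its group. It was at 9.25 and 9.43 in the EP tumours, 9.72 in the TF tumour, 9.88, 9.59, 9.86 and 9.86 in Ptch1+/- tumours, 9.94, 10.05, 10.20, 10.12 and 9.51 in MERP tumours and 9.97, 8.63, 8.57 and 8.58 in GTML tumours. Its values were 9.88, 9.65 and 9.64 in GNPs and 7.12, 7.44, 7.24 and 7.22 in adult cerebellum. Each of the 16 tumour arrays and 3 GNP arrays lay above all adult arrays, and GTML 1 stood apart from the other 3 GTML tumours. Stx1a was higher than in adult cerebellum by 2.21 ± 0.24 in CRISPR-Ptch1, 2.54 ± 0.23 in Ptch1+/-, 2.71 ± 0.21 in MERP and 1.68 ± 0.23 in GTML tumours and 2.47 ± 0.24 in GNPs (adjusted p = 4.82e-10 for MERP). The probe set used is of a class whose probes can match other transcripts. The only other Stx1a probe set was dimmer, with means of 6.19 in CRISPR-Ptch1, 6.63 in Ptch1+/-, 6.33 in MERP and 5.79 in GTML tumours and 6.06 in GNPs, against 5.59 in adult cerebellum, and so had the same direction.

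The 8 calcium sensor genes held the 3 highest fold changes of GTML against MERP tumours. Against adult cerebellum 7 were lower in CRISPR-Ptch1, 5 in Ptch1+/-, 6 in MERP and 6 in GTML tumours and 5 in GNPs, and none was higher. Syt1, the sensor of fast release, was at 9.51 and 10.65 in the EP tumours, 7.75 in the TF tumour, 8.73, 8.91, 7.86 and 9.12 in Ptch1+/- tumours, 8.28, 7.29, 7.83, 7.40 and 8.17 in MERP tumours and 11.39, 8.11, 10.44 and 10.90 in GTML tumours. It was at 10.18, 10.06 and 10.02 in GNPs and 12.71, 12.59, 12.83 and 12.75 in adult cerebellum. MERP tumours, the TF tumour and Ptch1+/- 3 lay at the low end, and GTML 2 lay far below the other GTML tumours and within the range of the MERP tumours. Syt1 was lower in MERP tumours than in GNPs by -2.30 ± 0.57 (adjusted p = 0.00571) and higher in GTML than in MERP tumours by 2.41 ± 0.52 (adjusted p = 0.000814).

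Syt7, a sensor of slower, asynchronous release, was at 7.79 and 8.96 in the EP tumours, 7.17 in the TF tumour, 7.27, 7.19, 6.94 and 7.16 in Ptch1+/- tumours, 7.39, 6.30, 6.26, 5.72 and 6.30 in MERP tumours and 9.78, 8.68, 8.54 and 9.45 in GTML tumours. Its values were 7.79, 7.81 and 8.02 in GNPs and 11.76, 11.53, 11.79 and 11.71 in adult cerebellum. Every GTML tumour exceeded every MERP tumour, EP 2 lay among the GTML tumours, and all adult arrays were above all others. The fold change was -5.30 ± 0.31 for MERP against adult cerebellum, 2.72 ± 0.31 for GTML against MERP (adjusted p = 5.35e-07) and 1.58 ± 0.34 for CRISPR-Ptch1 against MERP (adjusted p = 0.00458). Syt2, the fast sensor of hindbrain synapses, was lower than in adult cerebellum by -3.20, -4.18, -4.48 and -3.14 in CRISPR-Ptch1, Ptch1+/-, MERP and GTML tumours. It was higher in GTML than in MERP tumours by 1.34 ± 0.33 and in CRISPR-Ptch1 than in MERP tumours by 1.29 ± 0.36, although the TF tumour (5.61) lay within the MERP range (5.07 to 5.96). Against MERP tumours, the CRISPR-Ptch1 call was lost without EP 2 for Syt7 (adjusted p = 0.055) and without EP 2 (0.222), EP 1 (0.0773) or MERP 4 (0.0561) for Syt2.

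Syt4, a synaptotagmin without the usual calcium binding, was at 8.33 and 9.67 in the EP tumours, 8.11 in the TF tumour, 9.62, 8.71, 8.16 and 8.37 in Ptch1+/- tumours, 9.24, 7.67, 7.98, 9.66 and 5.24 in MERP tumours and 10.84, 11.11, 10.31 and 11.49 in GTML tumours. It was at 7.55, 7.70 and 7.81 in GNPs and 12.46, 12.50, 12.49 and 12.45 in adult cerebellum. All GTML tumours were above all other tumours and GNPs, and MERP tumours spread widely, with MERP 5 at 5.24. The fold change of GTML was 2.98 ± 0.58 against MERP (adjusted p = 0.000312), 3.25 ± 0.66 against GNPs (adjusted p = 0.000451) and -1.54 ± 0.61 against adult cerebellum (adjusted p = 0.0393). The last call was lost without GTML 1, 2 or 3 or any 1 adult array (adjusted p = 0.0548 to 0.105) and with each array centred on its named genes (0.0553). Its relative Syt11 had the opposite order between these models, with 10.63 ± 0.36 in GTML tumours and 11.39 ± 0.19 in MERP tumours (SD, n = 4 and 5), a fold change of -0.77 ± 0.24 (adjusted p = 0.0126).

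Doc2b, a high-affinity sensor linked to spontaneous release, divided the models in another way. It was at 7.11 and 7.08 in the EP tumours, 7.44 in the TF tumour, 5.28, 4.66, 5.68 and 5.18 in Ptch1+/- tumours, 5.89, 5.60, 5.27, 4.87 and 5.03 in MERP tumours and 5.39, 4.93, 5.49 and 6.35 in GTML tumours. Values were 7.74, 7.37 and 7.63 in GNPs and 9.51, 9.53, 9.70 and 9.64 in adult cerebellum. All 3 CRISPR-Ptch1 tumours, TF included, and all GNPs lay above every other tumour, and all adult arrays lay above these. Doc2b was higher in CRISPR-Ptch1 tumours than in MERP tumours by 1.87 ± 0.26 (adjusted p = 0.000124) and than in Ptch1+/- tumours by 2.005 ± 0.27 (adjusted p = 1.41e-05), while the difference from GNPs, -0.37 ± 0.29, did not pass the test (adjusted p = 0.473). Against GNPs it was lower in Ptch1+/- by -2.38 ± 0.27, in MERP by -2.25 ± 0.26 and in GTML tumours by -2.04 ± 0.27. Syt3 and Syt5, other members of the family, stayed between 4.71 and 5.72 and between 5.76 and 6.40 on all 23 arrays. Against adult cerebellum (-0.60 ± 0.15) Syt3 was called lower in CRISPR-Ptch1 tumours, and so it was against Ptch1+/- tumours (-0.52 ± 0.15, adjusted p = 0.0556 without EP 1), and Syt5 was called in no comparison.

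**Figure D3:**
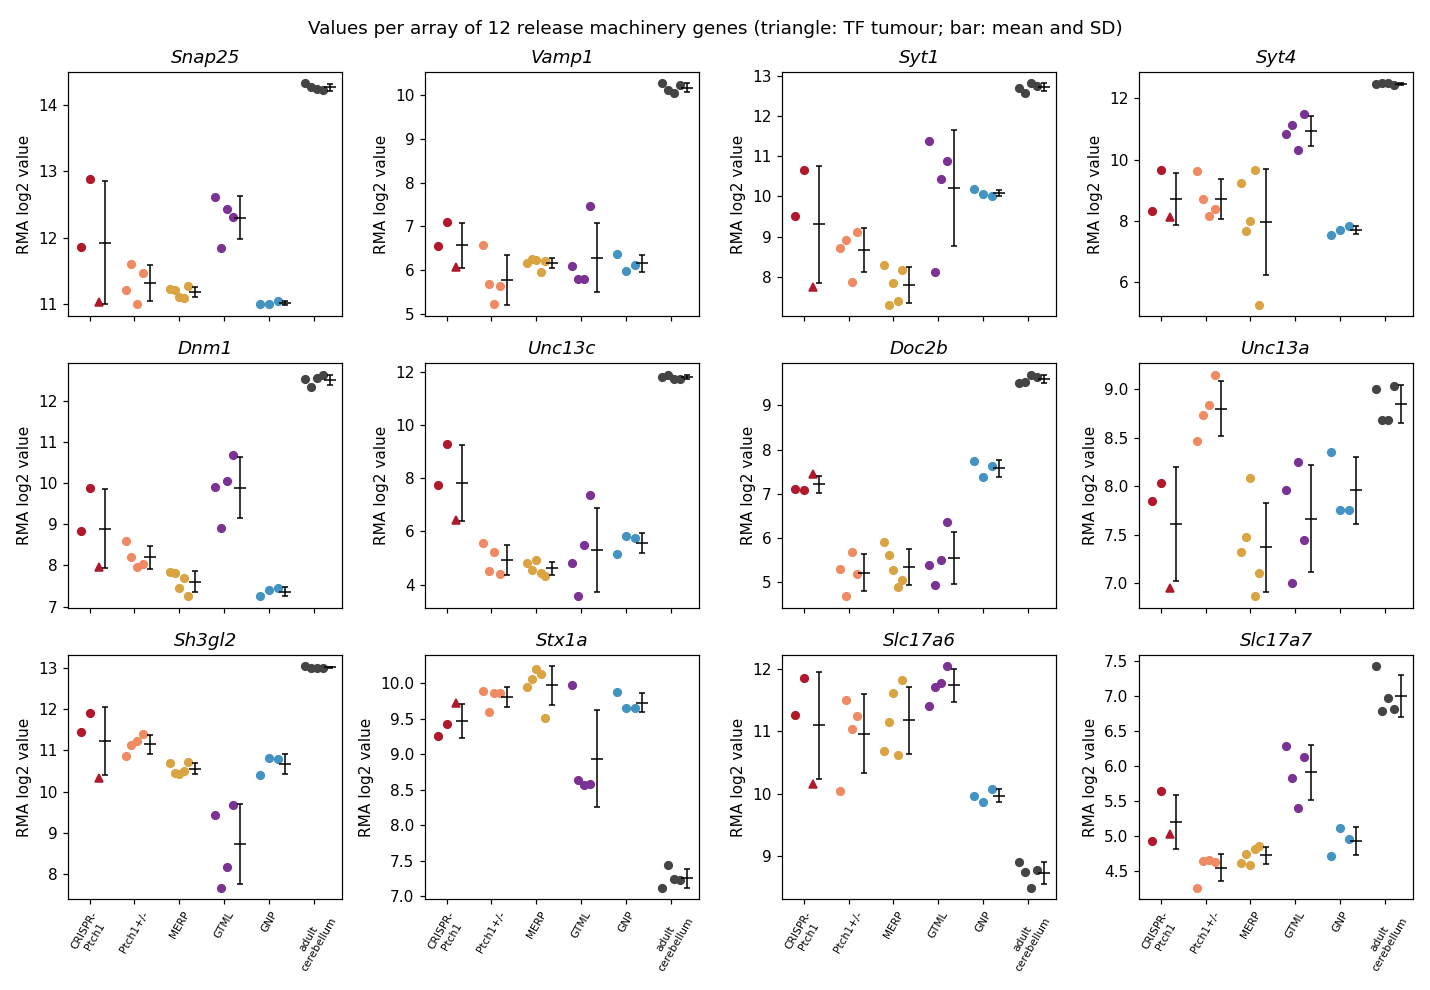
RMA log2 value of 12 genes on each array (one point per array, triangle for the TF tumour), with the mean and SD of the group as a bar, in CRISPR-Ptch1, Ptch1+/-, MERP and GTML tumours, GNPs and adult cerebellum. Doc2b separates CRISPR-Ptch1 tumours and GNPs from the other tumours, Syt4 and Dnm1 are higher in GTML than in MERP tumours, and Stx1a and Slc17a6 are lowest in adult cerebellum.

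Both complexins, small proteins that bind and clamp the SNARE complex, were lower in every tumour model and in GNPs than in adult cerebellum. Cplx1 was at 11.33 and 12.09 in the EP tumours, 10.58 in the TF tumour, 10.36, 10.78, 10.66 and 10.71 in Ptch1+/- tumours, 10.58, 10.81, 10.22, 10.64 and 10.27 in MERP tumours and 12.02, 11.92, 11.74 and 11.86 in GTML tumours. Values were 10.71, 11.25 and 11.22 in GNPs and 13.38, 13.35, 13.31 and 13.37 in adult cerebellum. GTML tumours lay above all MERP and Ptch1+/- tumours, and EP 2 was the highest tumour. Its fold change was 1.38 ± 0.20 for GTML against MERP (adjusted p = 1.18e-05) and 0.83 ± 0.22 for CRISPR-Ptch1 against MERP (adjusted p = 0.0171), where the TF tumour (10.58) lay inside the MERP range and the call was lost without EP 1 or EP 2 (adjusted p = 0.0606 and 0.173) and with the probe set of the highest SD (0.0607). Cplx2 was at 9.53 ± 1.13 in CRISPR-Ptch1, 10.51 ± 0.29 in Ptch1+/-, 9.46 ± 0.62 in MERP and 10.16 ± 0.37 in GTML tumours, against 12.91 ± 0.07 in adult cerebellum (SD, n = 3, 4, 5, 4 and 4), and it was lower in CRISPR-Ptch1 than in Ptch1+/- tumours by -0.98 ± 0.38 (adjusted p = 0.0465). That difference rested on the TF tumour, at 8.26, being -0.35 without it (adjusted p = 0.439), and was also not called without Ptch1+/- 1, 3 or 4 (0.0582, 0.0756 and 0.12). With the mean of the Cplx2 probe sets it was -0.12 (adjusted p = 0.746), and both other probe sets were higher in CRISPR-Ptch1 than in Ptch1+/- tumours, with means of 9.99 and 9.92 for one and 7.75 and 7.21 for the other.

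Of the 11 genes of the vesicle membrane and its coat, 7 were lower and 1 higher in CRISPR-Ptch1, 8 and 1 in Ptch1+/-, 9 and 1 in MERP and 10 and 1 in GTML tumours and 6 and 1 in GNPs, each against adult cerebellum. The vesicular glutamate transporters moved in opposite directions. Slc17a6 (VGLUT2), used by granule neurons early in postnatal life, was at 11.27 and 11.86 in the EP tumours, 10.16 in the TF tumour, 10.05, 11.50, 11.04 and 11.25 in Ptch1+/- tumours, 10.68, 11.16, 11.61, 10.63 and 11.82 in MERP tumours and 11.41, 11.72, 11.77 and 12.05 in GTML tumours. Values were 9.96, 9.87 and 10.08 in GNPs and 8.91, 8.75, 8.49 and 8.78 in adult cerebellum. Every tumour array lay above every adult array. It was higher than in adult cerebellum by 2.36 ± 0.35 in CRISPR-Ptch1, 2.23 ± 0.32 in Ptch1+/-, 2.44 ± 0.31 in MERP and 3.001 ± 0.32 in GTML tumours and 1.23 ± 0.35 in GNPs, and each tumour model was also higher than GNPs, by 1.13, 0.99, 1.21 and 1.77. The difference of GNPs from adult cerebellum was 0.03 (adjusted p = 0.967) with the probe set of the highest SD. Against GNPs, the call was lost without EP 1, EP 2 or any 1 GNP sample for CRISPR-Ptch1 (adjusted p = 0.093 to 0.257), without Ptch1+/- 2, 3 or 4 or any 1 GNP sample for Ptch1+/- (0.0543 to 0.0907) and without GNP 2 or with the probe set of the highest SD for MERP (0.054 and 0.0586).

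Slc17a7 (VGLUT1), the transporter of mature granule neurons, was at 4.94 and 5.65 in the EP tumours, 5.03 in the TF tumour, 4.26, 4.65, 4.66 and 4.63 in Ptch1+/- tumours, 4.62, 4.74, 4.59, 4.82 and 4.86 in MERP tumours and 6.28, 5.83, 5.40 and 6.13 in GTML tumours. It was at 4.72, 5.12 and 4.97 in GNPs and 7.42, 6.78, 6.96 and 6.81 in adult cerebellum. Adult arrays lay above all others, GTML tumours and EP 2 came next, and Ptch1+/- tumours were near background. Slc17a7 was lower than in adult cerebellum by -1.79 ± 0.20 in CRISPR-Ptch1, -2.44 ± 0.19 in Ptch1+/-, -2.27 ± 0.18 in MERP and -1.08 ± 0.19 in GTML tumours, and higher in GTML than in MERP tumours by 1.18 ± 0.18 (adjusted p = 1.43e-05).

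Syp (synaptophysin) was at 7.51 and 8.16 in the EP tumours, 6.59 in the TF tumour, 7.90, 8.06, 7.28 and 7.55 in Ptch1+/- tumours, 7.03, 6.89, 6.34, 6.53 and 6.72 in MERP tumours and 9.19, 8.20, 8.29 and 9.05 in GTML tumours. Values were 7.54, 7.13 and 7.19 in GNPs and 9.45, 9.43, 9.54 and 9.60 in adult cerebellum. The 4 GTML tumours lay above all other tumours and GNPs and below all adult arrays, with a fold change of 1.98 ± 0.25 against MERP (adjusted p = 2.14e-06) and of -0.82 ± 0.27 against adult cerebellum (adjusted p = 0.0529 without GTML 2). Synaptoporin (Synpr), a related membrane protein, ran the other way. Synpr averaged 8.87 ± 0.64 in GTML and 10.42 ± 0.53 in MERP tumours (SD, n = 4 and 5), a fold change of -1.55 ± 0.52 (adjusted p = 0.0219, and 0.0501 to 0.0729 without GTML 1, GTML 3 or MERP 4). Synaptophysin-like 1 (Sypl) averaged 8.90 in GTML and 9.51 in MERP tumours, a difference that was not called. It was lower than in GNPs by -1.46 ± 0.40 in Ptch1+/-, -1.22 ± 0.38 in MERP and -1.83 ± 0.40 in GTML tumours. The call for MERP was lost without MERP 2, 3 or 4 or any 1 GNP sample (adjusted p = 0.053 to 0.122).

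The synapsins tether vesicles to each other and to the cytoskeleton. Syn1 and Syn2 were lower than in adult cerebellum in all tumour models, by -1.65 and -2.48 in CRISPR-Ptch1, -1.90 and -2.40 in Ptch1+/-, -2.31 and -3.05 in MERP and -1.60 and -3.47 in GTML tumours. Syn2 was at 4.69 in GTML 2, against 8.11 to 9.41 in the other GTML tumours. Syn3 was at 8.91 and 9.29 in the EP tumours, 6.77 in the TF tumour, 6.93, 8.33, 8.01 and 8.65 in Ptch1+/- tumours, 7.04, 6.65, 7.004, 5.70 and 7.03 in MERP tumours and 6.87, 5.53, 7.10 and 6.999 in GTML tumours. Its values were 7.40, 7.90 and 7.72 in GNPs and 8.17, 8.06, 8.08 and 8.10 in adult cerebellum. Both EP tumours were above all other arrays, and the TF tumour lay within the MERP range. The fold change of CRISPR-Ptch1 against MERP was 1.64 ± 0.47 (adjusted p = 0.026, and 0.141, 0.187 and 0.0659 without EP 1, EP 2 or MERP 4), and against adult cerebellum Syn3 was lower in MERP (-1.42 ± 0.43) and GTML (-1.48 ± 0.46) tumours. Among the SV2 glycoproteins, Sv2a was lower than in adult cerebellum by -2.99 to -3.98 over the tumour models and Sv2b by -0.87 to -1.63. Sv2c was near background in every tumour group and in GNPs, at 3.41 to 4.43, and at 4.19 to 5.10 in adult cerebellum.

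All 10 genes of the Rab3 and active zone group were lower in CRISPR-Ptch1 and MERP tumours and in GNPs than in adult cerebellum, and 9 of 10 were lower in Ptch1+/- and in GTML tumours. Unc13c, which encodes Munc13-3, a priming factor concentrated in the cerebellum, had the largest measured change of all 42 genes. It was at 7.75 and 9.29 in the EP tumours, 6.42 in the TF tumour, 5.58, 4.51, 5.24 and 4.41 in Ptch1+/- tumours, 4.82, 4.54, 4.92, 4.44 and 4.34 in MERP tumours and 4.81, 3.55, 5.48 and 7.37 in GTML tumours. Its values were 5.14, 5.85 and 5.75 in GNPs and 11.82, 11.91, 11.76 and 11.73 in adult cerebellum. The adult arrays lay far above all others, the EP tumours came next, and MERP tumours, with a mean of 4.61, were near background, so that their fold change is best read as a lower bound. The log2 fold change against adult cerebellum was -3.98 ± 0.62 in CRISPR-Ptch1, -6.87 ± 0.57 in Ptch1+/-, -7.19 ± 0.54 in MERP and -6.50 ± 0.57 in GTML tumours and -6.23 ± 0.62 in GNPs (adjusted p = 2.12e-10 for MERP). Each CRISPR-Ptch1 tumour was above each MERP and Ptch1+/- tumour and each GNP sample, by 3.21 ± 0.59, 2.89 ± 0.62 and 2.24 ± 0.66 (adjusted p = 0.00156, 0.000921 and 0.0251). The call against GNPs was lost without EP 1, EP 2, GNP 1 or GNP 3 (adjusted p = 0.0571 to 0.168).

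Unc13a (Munc13-1), the main priming factor of the forebrain, was at 7.85 and 8.03 in the EP tumours, 6.94 in the TF tumour, 8.47, 8.74, 8.83 and 9.15 in Ptch1+/- tumours, 7.32, 7.48, 8.08, 6.86 and 7.10 in MERP tumours and 7.96, 6.9998, 8.25 and 7.44 in GTML tumours. It was at 8.36, 7.76 and 7.76 in GNPs and 9.01, 8.68, 8.68 and 9.03 in adult cerebellum. The Ptch1+/- tumours reached the adult range, and all CRISPR-Ptch1 tumours lay below them. Its fold change against adult cerebellum was -0.05 ± 0.28 in Ptch1+/- tumours (adjusted p = 0.902) and -1.24 ± 0.30 in CRISPR-Ptch1, -1.48 ± 0.26 in MERP and -1.19 ± 0.28 in GTML tumours, and CRISPR-Ptch1 was lower than Ptch1+/- by -1.19 ± 0.30 (adjusted p = 0.00361).

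The vesicle GTPase Rab3a was lower than in adult cerebellum by -2.33 in CRISPR-Ptch1, -1.63 in Ptch1+/-, -2.17 in MERP and -1.42 in GTML tumours. It was 10.59 and 10.39 in the EP tumours and 10.33 in the TF tumour, against 10.80, 11.35, 11.22 and 11.17 in Ptch1+/- tumours and 10.92, 11.11 and 11.09 in GNPs. CRISPR-Ptch1 tumours did not overlap either group, with fold changes of -0.70 ± 0.15 and -0.60 ± 0.17 (adjusted p = 0.0013 and 0.0165). The probe set used can match other transcripts, and the other Rab3a probe set turned both differences, to 0.53 and 0.18. Without EP 2, TF, GNP 2 or GNP 3 the difference from GNPs was not called (adjusted p = 0.0551 to 0.0629). Rab3c was higher in CRISPR-Ptch1 tumours than in GNPs by 1.36 ± 0.41 (adjusted p = 0.0274, and 0.08 to 0.146 without EP 1, EP 2, GNP 1 or GNP 3). With the mean of the Rab3c probe sets it was 0.29 (adjusted p = 0.398). Rab3c was lower in MERP tumours than in adult cerebellum by -2.37. Its next brightest probe set ran the other way there, with 8.62 in MERP tumours and 8.38 in adult cerebellum. So did the one after it, with 8.65 and 8.22. In GTML tumours and GNPs both were lower than in adult cerebellum. Rab3b stayed between 4.90 and 6.30 on all arrays. Rims1 and Rims2, scaffolds that link Rab3 to the release site, had fold changes of -4.33 and -1.90 in MERP tumours and -3.97 and -1.24 in GTML tumours. The large scaffolds Bsn and Pclo were lower by -2.40 and -1.87 in MERP tumours, but the next brightest Bsn probe set ran the other way, with 7.30 in MERP tumours and 6.90 in adult cerebellum. Erc2, which binds RIM and Bassoon, was the 1 gene of this group not called between GTML tumours and adult cerebellum, at 9.79, 9.07, 9.40 and 9.28 in GTML tumours and 9.49, 9.40, 9.50 and 9.45 in adult cerebellum. The values overlapped, the fold change was -0.08 ± 0.18 (adjusted p = 0.748), and GTML was higher than MERP by 1.22 ± 0.17 (adjusted p = 5.56e-06).

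Of the 5 endocytosis genes, all were lower in Ptch1+/- and MERP tumours and in GNPs than in adult cerebellum, and 4 in CRISPR-Ptch1 and in GTML tumours. Dnm1, the neuronal dynamin that severs vesicles from the membrane, was at 8.84 and 9.88 in the EP tumours, 7.96 in the TF tumour, 8.59, 8.20, 7.97 and 8.02 in Ptch1+/- tumours, 7.84, 7.81, 7.46, 7.69 and 7.25 in MERP tumours and 9.90, 8.90, 10.06 and 10.69 in GTML tumours. It was at 7.25, 7.40 and 7.45 in GNPs and 12.53, 12.32, 12.55 and 12.62 in adult cerebellum. GTML tumours lay above all MERP and Ptch1+/- tumours and GNPs, and each CRISPR-Ptch1 tumour was above each MERP tumour and GNP sample. The fold change was -4.89 ± 0.30 for MERP against adult cerebellum, 2.28 ± 0.30 for GTML against MERP (adjusted p = 3.5e-06) and 1.29 ± 0.33 for CRISPR-Ptch1 against MERP (adjusted p = 0.0137, and 0.139 without EP 2).

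Sh3gl2 (endophilin A1), which bends membrane and recruits dynamin and synaptojanin, had the reverse pattern. It was at 11.45 and 11.91 in the EP tumours, 10.32 in the TF tumour, 10.85, 11.13, 11.22 and 11.39 in Ptch1+/- tumours, 10.69, 10.44, 10.43, 10.49 and 10.72 in MERP tumours and 9.42, 7.66, 8.17 and 9.68 in GTML tumours. Its values were 10.39, 10.82 and 10.78 in GNPs and 13.04, 13.001, 13.002 and 12.998 in adult cerebellum. The 4 GTML tumours lay below every other array. Sh3gl2 was lower in GTML than in MERP tumours by -1.82 ± 0.32 (adjusted p = 9.66e-05), and lower than in adult cerebellum by -4.28 ± 0.34 in GTML and -2.46 ± 0.32 in MERP tumours. Snap91 (AP180), a clathrin adaptor, and Synj1 (synaptojanin 1), a lipid phosphatase that strips the coat, were higher in GTML than in MERP tumours by 1.39 ± 0.28 and 0.64 ± 0.24. The Synj1 call was lost without GTML 1, 3 or 4 or MERP 1, 2, 4 or 5 (adjusted p = 0.0532 to 0.14) and with each array centred on all probe sets (0.072). Amph (amphiphysin) was higher than in GNPs in each tumour model, by 1.27 in CRISPR-Ptch1, 0.84 in Ptch1+/-, 0.90 in MERP and 1.27 in GTML tumours, with no overlap between arrays.

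Of the pairs of tumour models compared, GTML against MERP gave the largest number of calls. The others were CRISPR-Ptch1 against MERP and against Ptch1+/-, and no other pair was fitted. Of the 42 genes, 19 were higher and 4 were lower in GTML tumours, with a median fold change of 0.63, while over all genes 15.8% were higher and 23.4% lower. Higher genes included Syt4, Syt7, Syt1, Dnm1, Napb and Syp, and the lower genes were Sh3gl2, Synpr, Stx1a and Syt11. Within the GTML group, GTML 2 had the lowest value for 30 of the 42 genes and for 23.4% of all genes. GTML 4 had the highest for 21 and for 33.7% of all, and GTML 1 for 17 and for 17.9% of all. Marker lists moved along these arrays too. Oligodendrocyte markers averaged 7.11, 5.26, 7.60 and 8.89 in GTML 1 to 4, against 5.75 to 6.31 in MERP tumours, and 4 of 7 were higher. Inhibitory interneuron markers averaged 6.99, 5.24, 6.38 and 7.29 in the same GTML tumours, against 5.11 to 5.33 in MERP tumours, and 4 of 8 were higher. Photoreceptor markers averaged 6.26 to 7.19 in GTML tumours, against 4.39 to 4.79 in MERP tumours, and 4 of 6 were higher, with Nrl at 10.22 and Crx at 9.30 in GTML tumours. The part of such cells or programmes in the release machinery values was not tested.

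**Figure D4:**
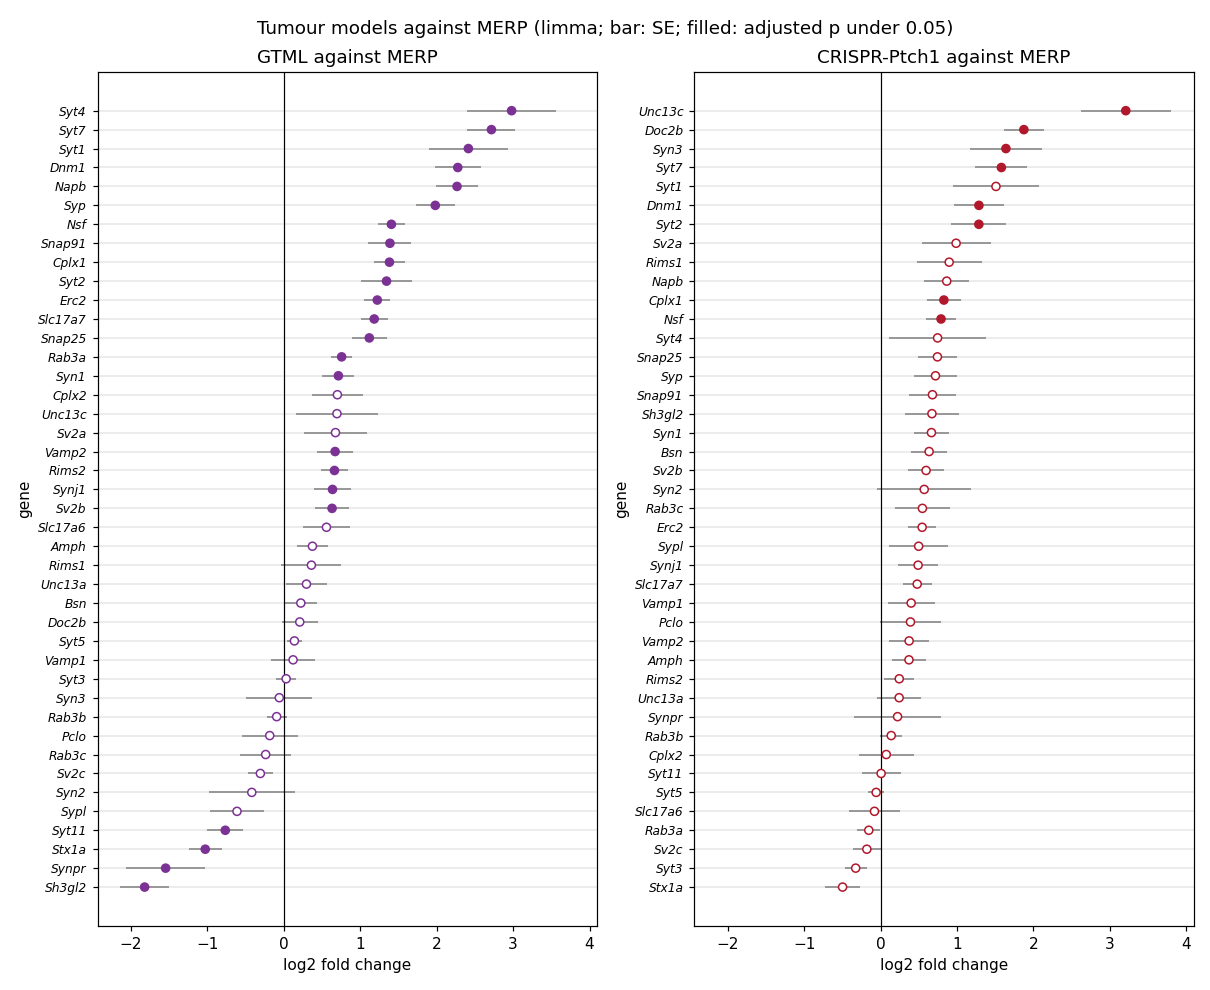
Log2 fold change of each of the 42 genes in GTML tumours (left) and in CRISPR-Ptch1 tumours (right), each against MERP tumours, with standard errors as bars, genes ordered by value and filled points at an adjusted p under 0.05. GTML shows 19 filled points above 0 and 4 below it, and CRISPR-Ptch1 shows 8 above 0 and none below it.

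Against GNPs, fewer of the genes differed than against adult cerebellum. In CRISPR-Ptch1 tumours 8 of 42 were higher and 1 was lower (median 0.28), beside 5.79% and 7.95% of all genes. In Ptch1+/- tumours 4 were higher and 2 lower (median 0.19), beside 9.4% and 29.9%. In MERP tumours 2 were higher and 5 lower (median -0.16), beside 7.12% and 12.1%. In GTML tumours 15 were higher and 6 lower (median 0.29), beside 16.1% and 25.7%. The 4 comparisons share the 3 GNP arrays. Slc17a6 and Amph were called higher in all 4 of them. Slc17a6 was higher than in GNPs on every tumour array outside the Ptch1+/- group, where Ptch1+/- 1 (10.05) lay within the GNP range. Leaving out 1 array changed the number of calls, to 3 without EP 1, 2 without EP 2, 15 without TF, 3 without GNP 1, 4 without GNP 2 and 2 without GNP 3 for CRISPR-Ptch1, to 3 without Ptch1+/- 4, GNP 2 or GNP 3 for Ptch1+/-, and to 4 without GNP 2 for MERP. In those fits 9.73% to 14.1% of all genes were called for CRISPR-Ptch1, 31.7% to 34.6% for Ptch1+/- and 13.9% for MERP. Scaling moved the balance of these calls. Centring each array on the median of its named genes moved the median of all genes from -0.10 to 0.44 for Ptch1+/-, from 0.05 to 0.31 for MERP, from -0.01 to 0.42 for GTML and from 0.00 to 0.06 for CRISPR-Ptch1 tumours, and gave 23 higher and 2 lower, 4 and 4, 25 and 5, and 8 and 0 in these models. Over all genes, 51.7%, 34.1%, 51.2% and 7.08% were then higher and 12.5%, 9.09%, 14.3% and 6.69% lower. Centring on all probe sets gave 3 higher and 4 lower in Ptch1+/- tumours, beside 7.05% and 34.2%.

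CRISPR-Ptch1 tumours differed from MERP tumours in 8 genes, all higher (Nsf, Syt2, Syt7, Doc2b, Cplx1, Syn3, Unc13c and Dnm1), with a median fold change over the 42 of 0.56, beside 8.2% higher and 5.15% lower over all genes. Centring on the named genes gave 8 higher and 2 lower, beside 5.19% and 17.4% of all. Their values were unequal within the group. Both EP tumours exceeded the TF tumour for 34 of the 42 genes and lay below it for 4, beside 40.1% and 40.7% of all genes, and the values ran EP 2, EP 1, TF from high to low for 33, beside 24.1% of all. Both EP tumours were above every MERP tumour for 30 of the 42, beside 18.4% of all. The TF tumour was above every MERP tumour for 7 and below every MERP tumour for 10, beside 22.3% and 24% of all. The mean of the 42 genes was 8.83 in EP 1, 9.33 in EP 2 and 8.07 in TF, against 8.002 to 8.23 in MERP tumours, 8.30 to 8.58 in Ptch1+/- tumours and 10.46 to 10.57 in adult cerebellum. The count of the 42 called against MERP was 22 with the EP tumours alone, which is also the count without TF, where 14.4% of all genes were called. It was 1 with the TF tumour alone (2.69% of all), 5 without EP 1 (6.1%) and 2 without EP 2 (6.17%). Doc2b and Unc13c were called against MERP whichever single array was left out.

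Several marker lists were also higher in CRISPR-Ptch1 than in MERP tumours, and 4 of those given here had the same order within the CRISPR-Ptch1 group. Mature granule neuron markers averaged 9.19 in EP 1, 10.53 in EP 2 and 8.18 in TF, against 6.98 to 7.48 in MERP tumours, and 7 of 10 were higher in CRISPR-Ptch1 tumours. Purkinje cell markers averaged 9.46 in EP 1, 10.88 in EP 2 and 8.58 in TF, against 6.46 to 6.89 in MERP tumours, and 8 of 9 were higher. Inhibitory interneuron markers averaged 6.63 in EP 1, 7.34 in EP 2 and 5.96 in TF, against 5.11 to 5.33 in MERP tumours, and 4 of 8 were higher. Oligodendrocyte markers averaged 8.23 in EP 1, 8.38 in EP 2 and 6.68 in TF, against 5.75 to 6.31 in MERP tumours, and 5 of 7 were higher. Microglia markers ran EP 1, EP 2, TF, at 9.65, 9.39 and 8.52, against 7.04 to 7.77 in MERP tumours, and 6 of 7 were higher. Choroid plexus and endothelial markers were instead highest in TF. Choroid plexus markers averaged 9.02 in TF and 6.58 in EP 2, against 6.84 to 8.08 in MERP tumours. Ttr was at 14.23 in TF, 7.92 in EP 1 and 6.94 in EP 2, while Otx2 was highest in EP 1 (10.91). Endothelial markers averaged 8.42 in TF and 7.90 in EP 1, against 6.77 to 7.81 in MERP tumours. The part of these cells in the release machinery values was not tested. EP and TF tumours differ in the route and age of delivery, in Trp53 and, by the methods, in strain. TF is also a single tumour, and these cannot be told apart here.

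**Figure D5:**
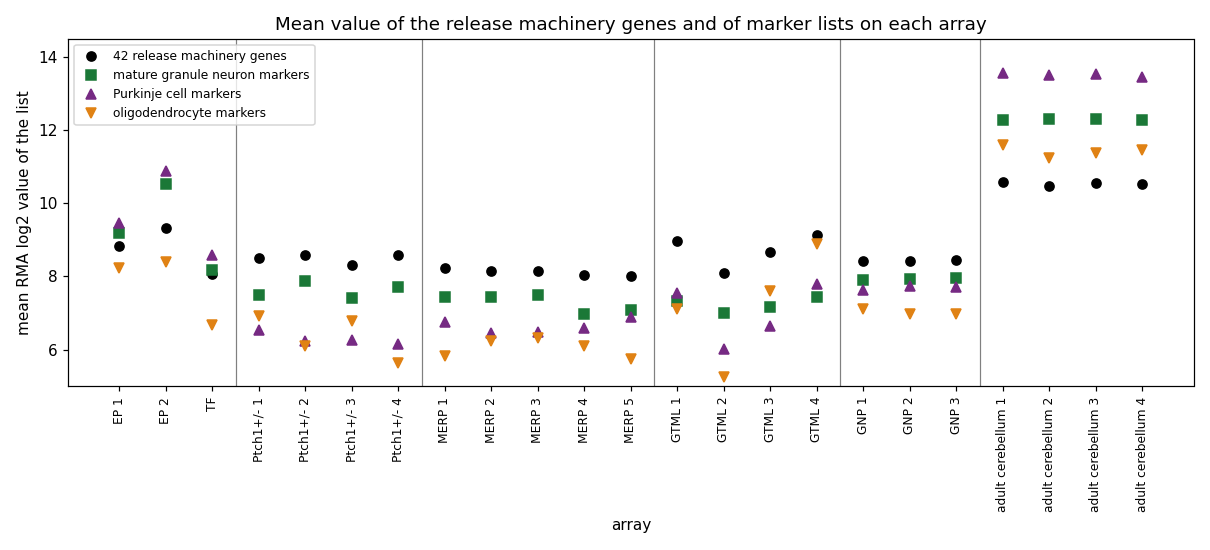
Mean RMA log2 value of the 42 release machinery genes (circles) and of markers of mature granule neurons (squares), Purkinje cells (upward triangles) and oligodendrocytes (downward triangles) on each of the 23 arrays, with lines between groups. In CRISPR-Ptch1 tumours the release machinery, granule neuron and Purkinje cell means share the order EP 2, EP 1, TF, and in GTML tumours GTML 2 is lowest in the release machinery and oligodendrocyte means.

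Against Ptch1+/- tumours, 6 genes were higher in CRISPR-Ptch1 tumours (Nsf, Syt2, Doc2b, Cplx1, Slc17a7 and Unc13c) and 5 were lower (Syt3, Syt11, Cplx2, Rab3a and Unc13a), beside 28.5% higher and 8.33% lower over all genes, with a median of 0.21 for the 42 genes and of 0.12 for all genes. This split turned with the scaling. Centring each array on the median of its named genes, which were lower overall in Ptch1+/- tumours, gave 3 higher and 10 lower, beside 11.5% and 44% of all genes, and centring on all probe sets gave 9 and 3, beside 31.5% and 6.68%. Without EP 1 the count of calls was 7, and the share of all genes in that fit is not given here. The gap between the 3' and 5' control probe sets did not overlap between these groups, at 0.68 to 0.82 in CRISPR-Ptch1 and 1.08 to 1.45 in Ptch1+/- tumours, and its part in these differences was not tested. Of the marker lists, 9 of 9 Purkinje cell, 7 of 7 microglia, 6 of 10 mature granule neuron and 4 of 7 oligodendrocyte markers were higher in CRISPR-Ptch1 tumours.

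Genes of the same machinery outside the 42 were set beside them, 54 of 58 listed being measured. In CRISPR-Ptch1 tumours 31 of 54 were lower and 5 higher than in adult cerebellum, beside 21.1% and 26.4% of all genes. In Ptch1+/- tumours 35 were lower and 7 higher (30.8% and 22.4% of all), and in MERP tumours 33 and 6 (24.9% and 30.8%). Counts in GTML tumours were 36 and 8 (27.9% and 27.3%), and in GNPs 31 and 8 (21% and 29.1%). The GABA vesicle transporter Slc32a1, a marker of inhibitory neurons, had the lowest fold change in CRISPR-Ptch1 (-4.76 ± 0.42), Ptch1+/- (-6.90 ± 0.38) and MERP (-7.03 ± 0.36) tumours, and the dynamin Dnm3 came next in each, with -3.74, -5.20 and -5.42. Slc32a1 was near background in Ptch1+/- (4.62) and MERP tumours (4.49), where its fold change is best read as a lower bound. In GTML tumours the lowest was Cadps2, a factor of dense-core vesicle release, with -6.54 ± 0.53. Doc2a, the sister gene of Doc2b, was higher than in adult cerebellum by 3.58 ± 0.25 in CRISPR-Ptch1, 4.21 ± 0.23 in Ptch1+/-, 4.51 ± 0.22 in MERP and 3.16 ± 0.23 in GTML tumours and 2.95 ± 0.25 in GNPs, whereas Doc2b was lower in all 5. In GTML tumours the complexins of retinal ribbon synapses, Cplx3 and Cplx4, had the highest fold changes, 5.60 ± 0.17 and 4.72 ± 0.19 against adult cerebellum (adjusted p = 7.55e-17 and 1.02e-14), and 5.50 ± 0.16 and 4.46 ± 0.18 against MERP tumours. Cplx4 was near background in adult cerebellum (4.19) and MERP tumours (4.46), and its fold changes are best read as lower bounds. Neither gene passed the test in CRISPR-Ptch1, Ptch1+/- or MERP tumours against adult cerebellum, and the photoreceptor markers given above were raised in the same GTML tumours.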

How the data were processed

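Affymetrix mouse genome arrays of 23 samples were analysed, in 6 groups taken from the sample titles. The deposited values are on a log2 scale and were computed by the authors with RMA in Affymetrix Expression Console 1.3.1, which corrects background, equalizes arrays and gives 1 value per probe set. Which arrays were normalized together is not given in the sources used here, and part of the arrays are from earlier studies, so array run and group cannot be told apart. The values were used as given, and 0 were missing.

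The annotation gave 1 gene for 34958 of 45101 probe sets (34754 matched by Entrez identifier), several genes for 932 and no gene for 9211. The probe set with the highest mean was kept for each of 18194 genes. A linear model of the 6 groups was fitted in R 4.3.3 with limma 3.58.1 (lmFit, contrasts.fit, eBayes), without covariates, for 12 comparisons, with p-values adjusted by Benjamini-Hochberg over all genes. EP and TF tumours were pooled. The p-values cover the spread between these arrays alone, as an origin from separate animals is not stated for each, and the number of arrays limits the precision. The fit was tested on simulated data. Figures and tables used Python 3.11.15 with pandas 2.3.3, numpy 2.4.6 and matplotlib 3.10.9.

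Members and lists were chosen with earlier results of these data known. All 42 genes are described, those that lead their role group, differ between models or go against their group with every array's value, and genes outside the 42 come from the release machinery list (largest changes against adult cerebellum) or the marker lists. Alternatives were centring on all probe sets or named genes, the mean of the probe sets, dropping dim genes (a value over 7.31 on 3 or more arrays kept 10986 genes, with 37 of the 42 among them), the probe set of the highest SD, other fit settings, only the groups compared, EP or TF alone, the replicate number as a block, and leaving out each array. Protein sequences were not used here.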

Additional observations from a re-analysis of the deposited data

Results flagged for a closer look

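Chance alone flags about 1 in 20 groups, and here 7 of 168 sets of values, each of 1 gene in 1 group of 4 or 5 arrays, held an array far from the others by Dixon's test. Stx1a (syntaxin 1A) was at 9.97 in GTML 1, against 8.57 to 8.63 in the other GTML tumours, and at 9.59 in Ptch1+/- 2, against 9.86 to 9.88 in the other Ptch1+/- tumours. Syn3 (synapsin 3) was at 5.53 in GTML 2, against 6.87 to 7.10 in the others, and Synj1 (synaptojanin 1) was at 9.49 in GTML 2, against 10.53 to 10.68. Slc17a7 (VGLUT1) was at 4.26 in Ptch1+/- 1, against 4.63 to 4.66. In adult cerebellum 1, Bsn (Bassoon) was at 10.10, against 9.86 to 9.89, and Sh3gl2 (endophilin A1) was at 13.04, against 12.998 to 13.002 in the other adult arrays.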

How the results depend on the processing

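The 5 comparisons with adult cerebellum and those of GTML against GNP and MERP kept their number of called genes within 1.5 times under every alternative run. The other counts moved. Shares of all genes are given above for some of these fits and are not repeated here. The moves are therefore not read as particular to the 42 genes. For CRISPR-Ptch1 against GNP, 9 genes were called, 5 with the mean of the probe sets, 2 with only the groups compared, 15 with the EP tumours alone, 2 with the TF tumour alone and 2 to 15 with 1 array left out. For Ptch1+/- against GNP, 6 were called, 25 after centring on the named genes, 11 with the mean of the probe sets, 13 with only the groups compared and 3 to 6 with 1 array left out. For MERP against GNP, 7 were called, 13 with only the groups compared and 4 to 8 with 1 array left out. For CRISPR-Ptch1 against MERP, 8 were called, 2 with only the groups compared, 22 with the EP tumours alone, 1 with the TF tumour alone and 2 to 22 with 1 array left out. For CRISPR-Ptch1 against Ptch1+/-, 11 were called, 7 with only the groups compared and 7 to 15 with 1 array left out. Of 120 called single-gene differences printed, 42 were over 1.5 times smaller with the mean of the gene's probe sets and 2 larger, and 6 were not called. With only the groups compared 11 were not called. Single-gene differences reversed in 2 cases, both of Rab3a with the probe set of the highest SD, to 0.18 for CRISPR-Ptch1 against GNP and 0.53 for CRISPR-Ptch1 against Ptch1+/-. The TF tumour alone is assumed to vary like the other groups. The cause of these moves was not tested, and some of those fits held fewer arrays.

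Replicate numbers showed no pairing of the samples on average. Deviations of arrays with the same number correlated at -0.01 on average over 46 pairs (-0.28 to 0.23). Those with different numbers correlated at 0.01 over 153 pairs. The pairs share arrays, and an average near 0 cannot exclude a pairing within some groups. With the replicate number as a block, which left out the unnumbered TF tumour, 19 genes were called for CRISPR-Ptch1 against MERP and 13 for CRISPR-Ptch1 against GNP. Precision is limited by 3 to 5 arrays a group and, for Sv2c, for Slc17a7 in Ptch1+/- and Unc13c in MERP tumours, by values near background.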
